A study of Mus musculus with 9 samples.

Results

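The genes described here are 40 genes that dividing cells use to copy their DNA and to divide, measured in mouse retina during oxygen-induced retinopathy. They were taken by gene symbol from the annotation of an Illumina bead array, with Cdc2a read as Cdk1 and Mcmd4 as Mcm4, and 1 probe was used per gene, the most intense of those that could be tested. By role they fall into 11 genes of DNA replication and 29 genes of mitosis. A named probe was found for 39 of the 40, out of 19405 named genes on the array. The mitotic cyclin gene Ccnb1 had none. These 39 genes had 73 probes between them.

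All samples were whole retinas of C57BL/6N mice, with both retinas of 1 mouse pooled on each array and 9 mice in all. The control group held 3 normal mice of postnatal day 12 (P12). For the other groups, pups stayed with their mothers in 75 ± 2% oxygen for 5 days, starting at P7. The hyperoxic group, 3 mice, was taken at the end of that time at P12, and the hypoxic group, 3 mice, after 12 hours back in room air at P12.5. No group of normal mice at P12.5 was analysed here, so that the return to room air cannot be told apart from 12 hours of age or from the time of day. Sex was not a term in the tests.

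A cell that commits to division first loads the MCM helicase, a ring of the proteins Mcm2 to Mcm7, onto its DNA. It then makes deoxynucleotides with ribonucleotide reductase (Rrm1 and Rrm2), thymidylate synthase (Tyms) and thymidine kinase (Tk1), and copies the DNA with polymerases held by the sliding clamp Pcna. E2F factors drive many of these genes before and during DNA synthesis. Mitosis genes are expressed later, in G2 and M, when the MuvB complex with B-Myb and FoxM1 turns them on. In the mouse retina most progenitors leave the cell cycle by the second week after birth, while endothelial cells and glia can still divide.

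Intensities were background-corrected, taken to log2 and quantile-normalized, and a level below is such a log2 value. A probe counted as detected on an array where its detection p-value was under 0.05. A probe was tested if some group had it detected on each of its 3 arrays (19620 of 46613), and a difference is a log2 difference ± SE from limma, called where the Benjamini-Hochberg adjusted p over all tested probes was under 0.05. Levels of different genes come from different probes and are not compared.

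The labels of the P12 arrays are in doubt, and 1 of them stands apart. In the deposited table of ratios, the median ratio was 1 at 100% of probes over control 1, hyperoxic 2 and hyperoxic 3, as if these 3 were the reference. Over the arrays labelled control it was 1 at 12.6% of probes. The detection p-values point to the same 3 arrays: the 3 columns placed beside control 1 to 3 follow the intensities of control 1, hyperoxic 2 and hyperoxic 3, and those beside hyperoxic 1 to 3 follow control 2, control 3 and hyperoxic 1. Whether control and hyperoxic labels were exchanged was not tested, and each P12 value below is that of the library so labelled. These 3 arrays are called inside the ratio reference below, and control 2, control 3 and hyperoxic 1 outside it. Hyperoxic 1 had a median intensity of 163.6, against 67.4 to 82.3 on the other arrays, and 30.6% of its probes were detected, against 42.1% to 44.5%. Rod genes marked all 9 arrays as retina, with a mean level of 12.59 to 12.96 over 6 tested genes. Each comparison is therefore given by the labels, and again with the P12 arrays grouped by the ratio reference.

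Replication genes were detected more often than mitosis genes. Of the 11 replication genes 8 were tested (72.7%), and of the 28 mitosis genes with a probe 9 were tested (32.1%), against 10948 of all 19405 named genes (56.4%). The 17 tested genes were Mcm2, Mcm4, Mcm5, Mcm6, Mcm7, Pcna, Rrm1 and Tyms, and the mitosis genes Bub1, Bub1b, Aurka, Plk1, Cenpa, Cenpe, Prc1, Cdca3 and Mki67. The probe used was detected on all 9 arrays for 9 of them, 5 of replication and 4 of mitosis. The other 8 were detected on 8 arrays each, and the array that lacked them was hyperoxic 1 in every case. In whole retina, fewer dividing cells and less RNA per dividing cell cannot be told apart.

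Of the 22 genes with a probe that were not tested, 15 had no probe detected on any array. They include Cdk1, the kinase that starts mitosis, its partners Ccna2 and Ccnb2, the topoisomerase Top2a, the kinase Aurkb, the ubiquitin-conjugating enzyme Ube2c and the spindle motor Kif11. The rest are Kif20a, Kif2c, Racgap1, Ect2, Hmmr and Melk among mitosis genes, and Mcm3 and Tk1 among replication genes. The Cdk1 probe lay at 5.00, 4.53 and 4.64 on control 1 to 3, at 4.52, 4.89 and 4.97 on hyperoxic 1 to 3, and at 4.72, 4.86 and 4.66 on hypoxic 1 to 3. The Top2a probe lay between 4.44 and 4.88, and the probes of all 15 genes between 4.32 and 5.00. At such levels the arrays give only an upper bound, and a change in these genes was not detectable.

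The other 7 untested genes were detected on some arrays. The probe of Birc5 (survivin, of the chromosomal passenger complex) was detected on 5 arrays, and those of Tpx2, Nusap1, Cdca8 and Cdca5 on 4 each. None of them was detected on all arrays of a group. For Cdc20, the activator of the anaphase-promoting complex, a probe other than the most intense was detected, on 1 array. Rrm2, the regulated subunit of ribonucleotide reductase, was detected on hyperoxic 1 alone, and by only 1 of its 3 probes. The level of that probe there was 6.64, against 4.48 to 4.66 on the other 8 arrays. The remaining Rrm2 probes read 4.49 and 4.55 on hyperoxic 1 and were detected on no array. The plot of detection by gene shows this division between the roles.

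**Figure D1:**
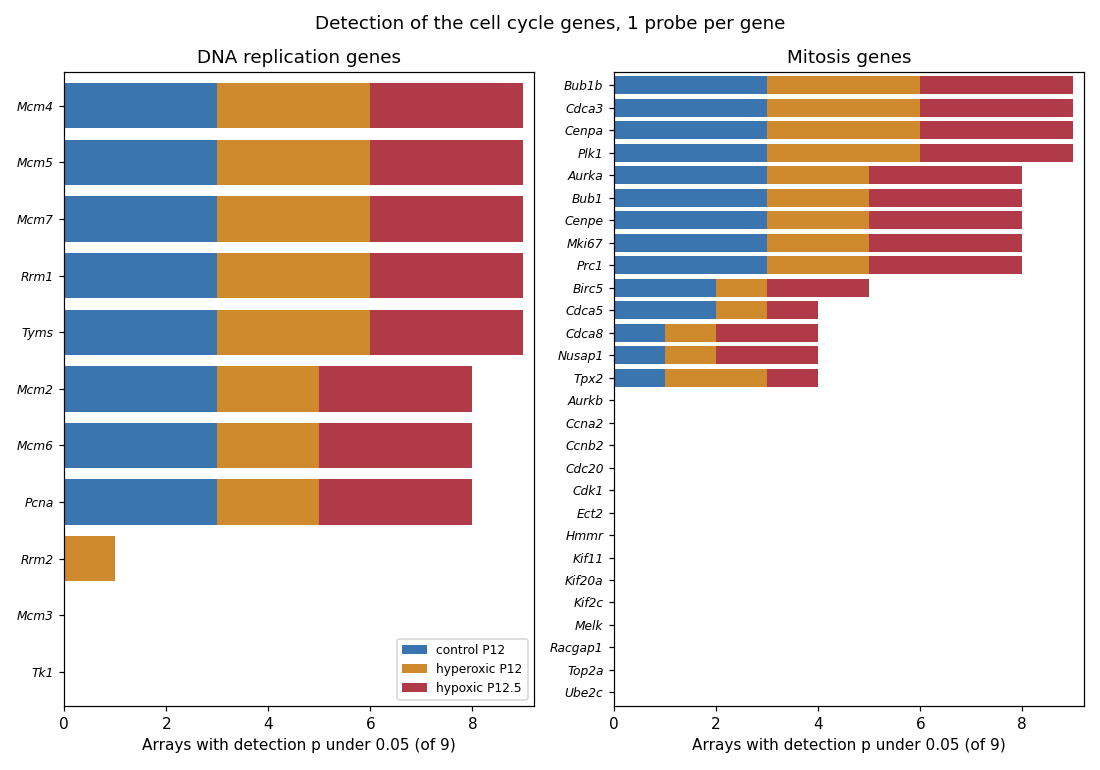
Number of arrays, of 9, with a detection p-value under 0.05 for the probe used, for 11 replication genes (left) and 28 mitosis genes (right). Bars are stacked by labelled group. Of the replication genes 8 reach 8 or 9 arrays, and of the mitosis genes 9 do.

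Detection also depended on the probe. Of the 17 tested genes 11 had other probes, 15 in number, and 9 of these were detected on no array. For Bub1, Cenpe, Mcm4, Plk1, Prc1 and Rrm1 no other probe was detected at all. The second Plk1 probe, to the same transcript as the first, lay between 4.50 and 4.94, where the probe used was detected on all 9 arrays. The Bub1 probe used was designed on a cDNA clone, and the probe designed on its RefSeq transcript was detected on no array. Only Mcm6 and Tyms had a second tested probe.

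The promoters of the 2 roles differ in the sequence elements known for each. RefSeq windows on GRCm38.p6, from 250 bases before to 50 bases after the start, were given for 35 of the 40 genes, and Aurkb, Ccna2, Kif20a, Mcm4 and Tpx2 had none. Both strands were searched for the CHR element TTTGAA, known to bind MuvB, for the CCAAT box of NF-Y, and for the E2F sites TTTGGCGC, TTTCCCGC and TTTCGCGC. E2F matches on opposite strands can overlap each other. The CHR letters were found in 21 of 27 windows of mitosis genes (77.8%), in 1 of 11 of replication genes (9.09%) and in 17.9% of all 32851 windows. An E2F site was found in 4 of 11 replication windows (36.4%), in 1 of 27 mitosis windows (3.7%) and in 1.84% of all. CCAAT was common to both roles, in 81.8% and 81.5% of windows, against 37.4% of all. A match of letters is a description and no measurement of binding.

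Below are the 160 bases before the start of 3 replication genes that were detected and 3 mitosis genes whose most intense probe was not, 5′ to 3′ on the gene's strand. They are shown because they carry the elements that set the roles apart, and Mcm2 as the exception, whose window was the single one of its role with the CHR letters. Capitals mark the CHR letters, the CCAAT boxes and the E2F sites, where a match on the other strand appears as its reverse complement. In Mcm6 and Mcm5 an E2F site on each strand overlaps the other in 1 run of capitals.
Mcm6 (chr1:128359706-128359865, minus strand): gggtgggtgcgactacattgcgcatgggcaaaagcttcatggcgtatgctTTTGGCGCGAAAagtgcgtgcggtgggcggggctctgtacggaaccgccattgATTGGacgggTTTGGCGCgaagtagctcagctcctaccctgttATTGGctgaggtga
Mcm5 (chr8:75109349-75109508, plus strand): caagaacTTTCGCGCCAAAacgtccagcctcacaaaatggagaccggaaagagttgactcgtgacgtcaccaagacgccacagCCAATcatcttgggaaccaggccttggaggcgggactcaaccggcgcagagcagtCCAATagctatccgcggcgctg
Mcm2 (chr6:88898781-88898940, minus strand): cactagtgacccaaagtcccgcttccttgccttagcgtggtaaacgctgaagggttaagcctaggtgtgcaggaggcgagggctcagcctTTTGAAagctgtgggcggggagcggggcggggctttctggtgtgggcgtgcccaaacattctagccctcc
Cdk1 (chr10:69352913-69353072, minus strand): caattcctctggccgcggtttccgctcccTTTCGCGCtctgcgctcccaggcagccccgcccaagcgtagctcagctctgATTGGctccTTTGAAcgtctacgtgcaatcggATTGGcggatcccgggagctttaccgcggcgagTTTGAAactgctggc
Cdc20 (chr4:118437344-118437503, minus strand): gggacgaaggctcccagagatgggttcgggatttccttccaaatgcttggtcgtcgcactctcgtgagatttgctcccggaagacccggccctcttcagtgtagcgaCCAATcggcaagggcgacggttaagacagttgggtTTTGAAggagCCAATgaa
Top2a (chr11:99024190-99024349, minus strand): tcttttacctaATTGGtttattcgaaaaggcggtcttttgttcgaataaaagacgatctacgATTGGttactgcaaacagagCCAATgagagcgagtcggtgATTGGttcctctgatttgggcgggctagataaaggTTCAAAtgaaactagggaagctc
Mcm6 held 3 E2F sites, which begin 110, 106 and 47 bases before the start. Cdk1 held the CHR letters 71 and 15 bases before its start, Cdc20 held them 18 bases before and Top2a 23 bases before. Cdk1 was also the mitosis gene with an E2F site, 131 bases before the start.

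The first comparison asked how retinas after 5 days of oxygen differed from normal retinas of the same age. None of the 17 tested genes was called between the labelled hyperoxic and control groups, and 0% of all tested probes were (0 of 19620). At an unadjusted p under 0.05 the counts were 1 of 17 genes and 9.54% of all probes. The lowest adjusted p among the 17 was 0.464 by limma. The median difference was -0.03 over replication genes and -0.10 over mitosis genes, beside -0.06 over all tested probes.

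The checkpoint kinase gene Bub1 had the lowest p of that comparison. Its level was 6.05, 5.97 and 6.15 on control 1 to 3, 5.68, 5.78 and 5.80 on hyperoxic 1 to 3, and 5.77, 5.79 and 5.76 on hypoxic 1 to 3. The control arrays lay above the other 6 without overlap. The difference between hyperoxic and control was -0.30 ± 0.10 (adjusted p = 0.464 by limma). Grouped by the ratio reference, the difference of outside from inside was 0.06 ± 0.13, and its sign rests on that order.

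Mcm4, of the helicase ring, had levels of 8.37, 8.41 and 8.33 on control 1 to 3, 8.31, 8.04 and 8.17 on hyperoxic 1 to 3, and 8.40, 8.43 and 8.37 on hypoxic 1 to 3. The hyperoxic arrays lay below the control arrays without overlap, by a difference of -0.20 ± 0.11 (adjusted p = 0.561 by limma). The difference of outside from inside was 0.16 for Mcm4, and its sign rests on that order too.

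Cenpe, a kinetochore motor, was at 6.91, 6.64 and 6.42 on control 1 to 3, at 5.78, 6.47 and 6.49 on hyperoxic 1 to 3, and at 6.38, 6.13 and 6.45 on hypoxic 1 to 3. Its lowest value was on hyperoxic 1, where it was not detected. The hyperoxic and control arrays overlapped, and the difference was -0.41 ± 0.21 (adjusted p = 0.549 by limma), or -0.18 ± 0.15 without hyperoxic 1. Hyperoxic 1 was the lowest of the 9 arrays for 6 of the 17 genes and the highest for 2.

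The next comparisons asked what changed in the first 12 hours in room air. None of the 17 genes was called at P12.5 against the arrays labelled hyperoxic, where 1.69% of all tested probes were called (1.13% higher and 0.566% lower, 332 in all). None was called against the control, where 1.83% were (1.24% higher and 0.591% lower, 360 in all). None was called against all 6 P12 arrays together, where 3.84% were (2.27% higher and 1.57% lower). The size of the last difference does not depend on which P12 array carries which label. Its SE, p and calls do, because the spread was taken within the labelled groups. Of the 753 probes called in that comparison 445 were higher and 308 lower. With each array centred on its median in place of quantile normalization, 252 were higher and 5 lower, and with the deposited ratios 26 and 0. At an unadjusted p under 0.05, 5 of the 17 genes passed in each of these comparisons, against 18.8%, 20% and 21.7% of all tested probes.

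The medians of the roles lay on opposite sides of that of all probes. Against all 6 P12 arrays the median difference was 0.17 over 8 replication genes, -0.13 over 9 mitosis genes and 0.02 over all tested probes. With median centring these were 0.46, 0.08 and 0.24, so that the mitosis median changed sign while lying below the median of all probes. With the deposited ratios they were 0.29, -0.01 and 0.13. Members that pass a detection filter are not all members, and these medians carry no test.

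Against all 6 P12 arrays, 5 of the 17 genes did not overlap. Mcm7 and Pcna lay above on all 3 P12.5 arrays, and Mcm2, Plk1 and Cenpa below. Of all tested probes 14% showed no overlap, 6.91% higher and 7.06% lower.

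Mcm2 had levels of 5.98, 5.58 and 5.70 on control 1 to 3, 5.76, 5.79 and 5.66 on hyperoxic 1 to 3, and 5.38, 5.35 and 5.24 on hypoxic 1 to 3. All P12.5 arrays lay below all P12 arrays, with a difference of -0.42 ± 0.11 (adjusted p = 0.0603 by limma). Against the hyperoxic and the control arrays the differences were -0.42 ± 0.12 and -0.43 ± 0.12 (adjusted p = 0.117 and 0.104 by limma).

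Mcm7, of the same helicase ring, was at 7.37, 7.42 and 7.37 on control 1 to 3, at 7.43, 7.27 and 7.48 on hyperoxic 1 to 3, and at 7.75, 7.61 and 7.49 on hypoxic 1 to 3. The lowest P12.5 value lay barely above the highest P12 value. Its difference from all 6 P12 arrays was 0.22 ± 0.10 (adjusted p = 0.208 by limma), opposite in sign to that of Mcm2.

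Pcna, the sliding clamp, had levels of 5.82, 5.66 and 5.84 on control 1 to 3, 5.28, 5.97 and 5.94 on hyperoxic 1 to 3, and 6.13, 6.17 and 6.22 on hypoxic 1 to 3. Pcna, Mcm6, Aurka and Prc1 are given in full here because of their values, not by the rule that chose the other genes. The low value on hyperoxic 1 was not detected. The difference from all 6 P12 arrays was 0.42 ± 0.15 (adjusted p = 0.145 by limma), and without hyperoxic 1 it was 0.31 (adjusted p = 0.0336).

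Rrm1, the large subunit of ribonucleotide reductase, was at 7.14, 7.30 and 7.35 on control 1 to 3, at 7.52, 7.13 and 7.20 on hyperoxic 1 to 3, and at 7.43, 7.26 and 7.07 on hypoxic 1 to 3. The groups overlapped, with a difference of -0.02 ± 0.12 from all 6 P12 arrays (adjusted p = 0.945 by limma). Mcm5 ranged from 6.85 to 7.27 over the 9 arrays and differed by 0.21 ± 0.10. Tyms ranged from 5.91 to 6.18 and differed by 0.04 ± 0.09, and its second probe by 0.11 ± 0.20.

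Among mitosis genes, Plk1, a kinase of mitotic entry and exit, had levels of 7.19, 6.89 and 6.74 on control 1 to 3, 6.73, 6.86 and 7.17 on hyperoxic 1 to 3, and 6.55, 6.28 and 6.40 on hypoxic 1 to 3. All P12.5 arrays lay below all P12 arrays. The difference was -0.52 ± 0.14 (adjusted p = 0.0656 by limma), and -0.53 ± 0.16 and -0.51 ± 0.16 against the control and the hyperoxic arrays.

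Cenpa, the histone variant that marks centromeres, was at 7.47, 7.23 and 6.96 on control 1 to 3, at 7.58, 7.31 and 7.36 on hyperoxic 1 to 3, and at 6.84, 6.95 and 6.56 on hypoxic 1 to 3. The P12.5 arrays again lay below all others, with hypoxic 2 next to control 3. The difference from all 6 P12 arrays was -0.54 ± 0.14 (adjusted p = 0.0642 by limma), and from the hyperoxic arrays -0.63 ± 0.16 (adjusted p = 0.0845).

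Aurka, the spindle pole kinase, lay the other way without passing the test. It was at 5.21, 5.89 and 5.78 on control 1 to 3, at 5.64, 5.20 and 5.50 on hyperoxic 1 to 3, and at 5.94, 5.72 and 6.02 on hypoxic 1 to 3. The P12.5 arrays lay above the hyperoxic arrays and overlapped the control arrays. The difference from all 6 P12 arrays was 0.36 ± 0.16 (adjusted p = 0.242 by limma).

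Bub1b, the partner of Bub1 in the spindle checkpoint, spread widely within each group. Its levels were 7.53, 8.05 and 7.78 on control 1 to 3, 7.89, 7.38 and 7.91 on hyperoxic 1 to 3, and 7.96, 7.13 and 7.57 on hypoxic 1 to 3. The difference from all 6 P12 arrays was -0.20 ± 0.20 (adjusted p = 0.592 by limma). Prc1, which bundles the central spindle, had levels of 6.36, 5.58 and 5.72 on control 1 to 3, 5.72, 6.34 and 5.82 on hyperoxic 1 to 3, and 6.11, 5.42 and 5.87 on hypoxic 1 to 3, and differed by -0.13 ± 0.22.

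The proliferation marker Mki67 ranged from 5.02 to 5.51 over the 9 arrays. It differed by 0.14 ± 0.12 from all 6 P12 arrays (adjusted p = 0.512 by limma). Cdca3 ranged from 6.12 to 6.63 and differed by 0.13 ± 0.11, Cenpe differed by -0.13 ± 0.18, and Bub1 by -0.13 ± 0.09.

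**Figure D2:**
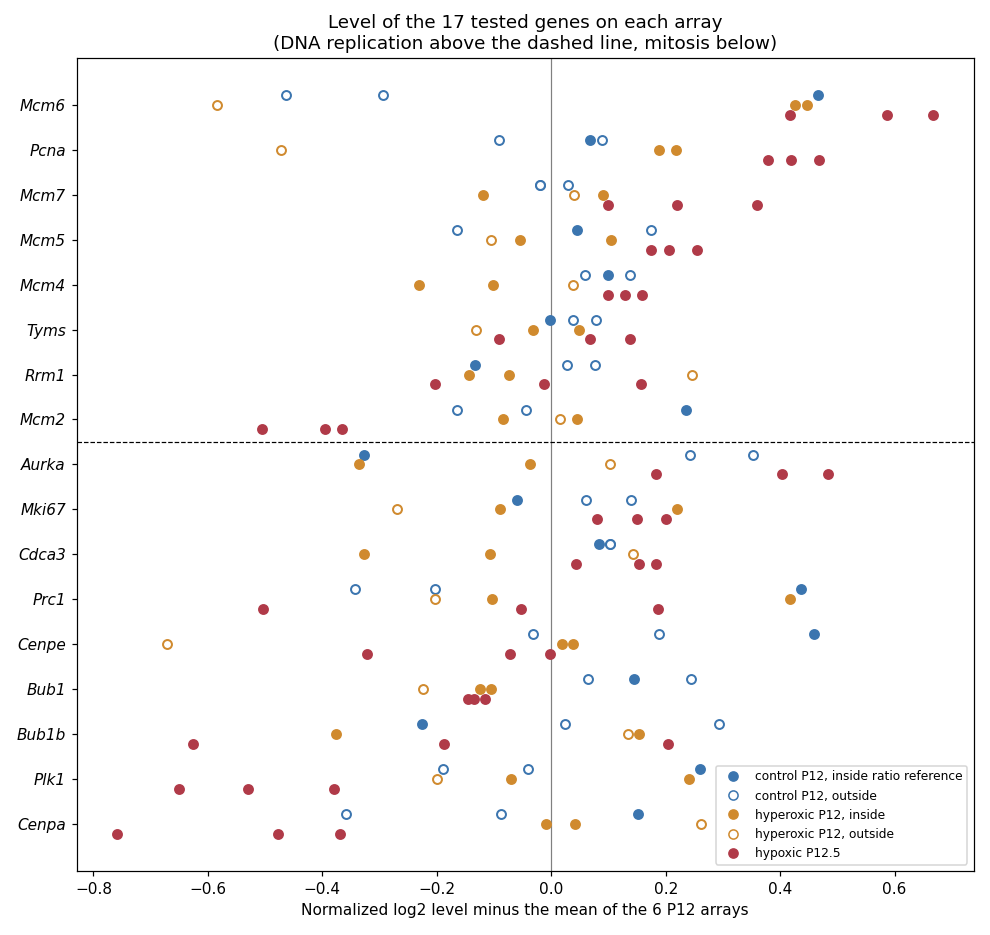
Level of each of the 17 tested genes on the 9 arrays, as normalized log2 level minus the mean of that gene over the 6 P12 arrays (horizontal axis), with replication genes above the dashed line and mitosis genes below it. Colours give the labelled group and open points the P12 arrays outside the ratio reference. Mcm7 and Pcna lie above all P12 arrays at P12.5, Mcm2, Plk1 and Cenpa below.

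Hyperoxic 1 decided how many genes passed. Without it, Cenpa, Mcm2, Pcna and Plk1 passed against the other 5 P12 arrays, at -0.49, -0.42, 0.31 and -0.56 (adjusted p = 0.0228, 0.0212, 0.0336 and 0.0107 by limma). Mcm2, Mcm6, Pcna and Plk1 then passed against the control, and Cenpa and Plk1 against the remaining hyperoxic arrays. The share of all tested probes called grew as well, to 15.9% against the other 5 P12 arrays, 16.1% against the control and 10.2% against the hyperoxic arrays. Between the P12 groups 0 of 17 genes passed without it, where 2.88% of probes did.

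Mcm6 separated the P12 arrays along the ratio reference and not along the labels. Its level was 6.56, 5.80 and 5.63 on control 1 to 3, 5.51, 6.52 and 6.54 on hyperoxic 1 to 3, and 6.76, 6.68 and 6.51 on hypoxic 1 to 3. Within each labelled P12 group the arrays inside the reference were high, with a mean of 6.54 ± 0.02 (SD, n = 3), and those outside low, at 5.65 ± 0.14 (SD, n = 3). The difference of outside from inside was -0.89 ± 0.11 (adjusted p = 0.00295 by limma). It was the only one of the 17 genes called there, where 3.91% of all tested probes were called (1.57% higher and 2.34% lower) and 26% did not overlap. Aurka, Rrm1 and Cdca3, higher outside, and Prc1, lower outside, did not overlap either and were not called.

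At P12.5 the level of Mcm6 was 1.002 ± 0.112 above the arrays outside the reference (adjusted p = 0.00239 by limma) and 0.11 ± 0.11 above those inside it (adjusted p = 0.642). A second tested Mcm6 probe did not show the split. It read 6.43, 5.87 and 6.34 on control 1 to 3, 6.22, 6.05 and 5.77 on hyperoxic 1 to 3, and 5.62, 5.99 and 5.99 on hypoxic 1 to 3. Its mean was 6.08 ± 0.33 inside and 6.15 ± 0.24 outside (SD, n = 3 each), and its difference between P12.5 and all 6 P12 arrays was -0.25 ± 0.16, opposite to the 0.56 ± 0.26 of the first. The remaining Mcm6 probe was detected on no array. A direction for the Mcm6 gene therefore cannot be given.

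The reference also decided which genes passed at P12.5. Against the 3 arrays inside it, Plk1 (-0.66 ± 0.12, adjusted p = 0.0102 by limma), Mcm2 (-0.49 ± 0.11, adjusted p = 0.0244) and Cenpa (-0.60 ± 0.16, adjusted p = 0.0488) fell and Aurka (0.59 ± 0.13, adjusted p = 0.0193) rose. These are 4 of 17 genes, where 9.06% of all tested probes were called (4.41% higher and 4.64% lower). Against the 3 arrays outside it Mcm6, by the probe above, and Pcna (0.58 ± 0.14, adjusted p = 0.0412 by limma) rose, 2 of 17, where 6.23% were called (4.22% higher and 2.01% lower). On hyperoxic 1, which is among the arrays outside, neither probe was detected, at 5.51 for Mcm6 and 5.28 for Pcna. Plk1, Mcm2 and Cenpa lay at -0.38 ± 0.12, -0.36 ± 0.11 and -0.47 ± 0.16 against the arrays outside, without overlap and without passing. Aurka was at 0.13 ± 0.13 against the arrays outside (adjusted p = 0.57 by limma) and overlapped them. Its levels at P12 were 5.20 to 5.50 on the arrays inside and 5.64 to 5.89 on those outside, a difference of 0.46 ± 0.13 without overlap (adjusted p = 0.0735). Both comparisons share the P12.5 arrays.

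**Figure D3:**
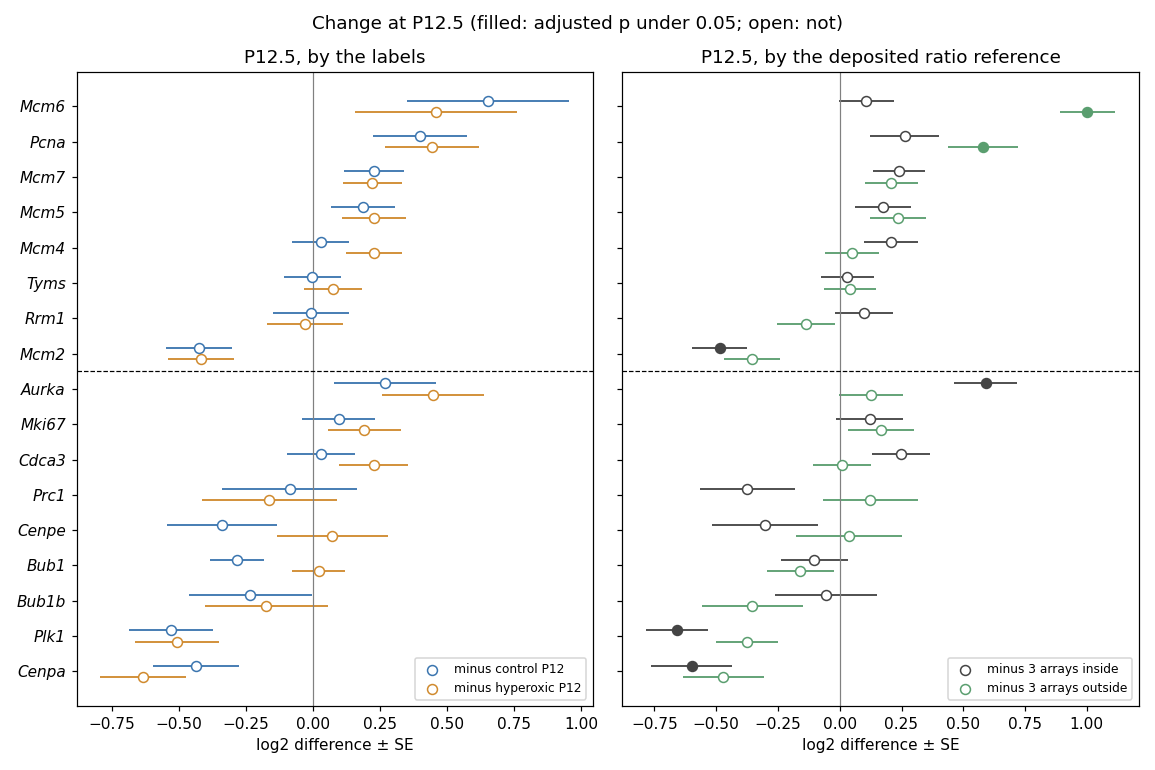
Log2 difference ± SE of the P12.5 arrays for the 17 tested genes, against the labelled P12 groups (left) and against the P12 arrays inside and outside the ratio reference (right). Filled points passed at an adjusted p under 0.05 by limma, and open points did not. No point is filled on the left, and 6 are on the right.

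Markers of several cell types, though not of all, differed along the reference. The mean level of 6 tested rod genes was 12.93 to 12.96 on the arrays inside it, 12.69 to 12.78 on those outside and 12.59 to 12.72 at P12.5. The mean level of 9 tested endothelial genes was 7.84 to 7.94 on the arrays inside the reference, 7.02 to 7.13 on those outside and 7.07 to 7.15 at P12.5, and Esm1 was detected on no array. Over 5 pericyte genes it was 7.57 to 7.73, 6.68 to 6.98 and 6.80 to 6.89, and over 2 astrocyte genes, with Pax2 and S100b undetected, 6.80 to 7.28, 7.41 to 7.57 and 7.70 to 7.76. Over 8 Muller glia genes it was 10.31 to 10.47, 10.12 to 10.18 and 10.12 to 10.19, and over 7 microglia genes, with Itgam undetected, 5.96 to 6.15, 6.22 to 6.37 and 6.07 to 6.27. Over 5 retinal progenitor genes it was 7.30 to 7.38, 7.27 to 7.33 and 7.31 to 7.38, and the early progenitor genes Atoh7, Fgf15 and Sfrp2 were detected on no array. Over 2 erythroid genes the mean level was 7.67 to 8.07 inside, 6.96 to 7.67 outside and 6.80 to 7.92 at P12.5. Lens genes, 5 tested, reached 8.08 on hyperoxic 1 and 8.86 on hypoxic 1, against 6.02 to 7.29 elsewhere. The part of these cells in the differences above was not tested.

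Among other cell cycle genes a few passed at P12.5. Cdkn1a, the p21 inhibitor of cyclin-dependent kinases, rose at P12.5. Its level was 6.83, 7.44 and 7.42 on control 1 to 3, 7.60, 6.83 and 6.92 on hyperoxic 1 to 3, and 8.90, 8.90 and 8.96 on hypoxic 1 to 3. The P12.5 arrays lay far above the others, by 1.75 ± 0.19 over all 6 P12 arrays (adjusted p = 0.00245 by limma). Its second probe rose by 1.37 ± 0.24 (adjusted p = 0.0214). Against the arrays inside and outside the reference the first probe rose by 2.06 ± 0.10 and 1.43 ± 0.10.

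Cdkn2b, the p15 inhibitor of the cyclin D kinases, rose too, from 5.43 to 6.16 over the P12 arrays to 6.55, 6.59 and 6.33 on hypoxic 1 to 3 (0.75 ± 0.14, adjusted p = 0.0275 by limma). These were 2 of 12 tested inhibitor genes, with 0 falling, where 3.84% of all tested probes were called (2.27% higher and 1.57% lower). The inhibitor median was 0.21, beside 0.02 over all tested probes. Of 16 tested drivers of the G1 to S transition, E2f1 rose and 15 did not pass, with a median of 0.13. E2f1, a transcription factor of replication genes, was at 5.55, 5.91 and 5.70 on control 1 to 3, at 5.50, 5.28 and 5.63 on hyperoxic 1 to 3, and at 6.42, 6.12 and 6.32 on hypoxic 1 to 3. The P12.5 arrays lay above the rest, by 0.69 ± 0.12 (adjusted p = 0.0226 by limma).

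Of 36 tested replication genes outside the 11, 2 were called higher, 1 lower and 33 did not pass against all 6 P12 arrays. Of all tested probes 3.84% were called there (2.27% higher and 1.57% lower). The median was 0.08, beside 0.02 over all tested probes. Pole, the catalytic subunit of the leading strand polymerase, was called higher by 0.61 ± 0.11 (adjusted p = 0.0233 by limma). Its level was 5.01 to 5.30 over the P12 arrays and 5.87, 5.87 and 5.64 on hypoxic 1 to 3. Pole was detected on 4 of the 6 P12 arrays, and on all arrays of neither P12 group. It entered the test only through P12.5, so that its calls, here and below, are no support for a rise. Chaf1b, a histone chaperone subunit, was detected on no P12 array and on all 3 P12.5 arrays. It entered the test only through P12.5, so that its call (adjusted p = 0.0485 by limma) is no support for a rise. It was at least 1.05-fold higher, the bright mean being set against the lowest detected signal of each P12 array or the probe's own. Cdc7, the kinase that fires replication origins, fell, from 9.22 to 9.64 over the P12 arrays to 8.81, 8.85 and 8.92 (-0.51 ± 0.10, adjusted p = 0.0282). Of 22 tested mitosis genes outside the 29, 0 passed and 6 had an unadjusted p under 0.05, against 21.7% of all tested probes. Their median was 0.03, beside 0.02 over all tested probes.

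Most of these calls ended when single arrays were left out, with differences of much the same size. Leaving out any 1 of the P12.5 arrays ended those of E2f1, Pole, Cdkn2b, Cdc7 and Chaf1b against all 6 P12 arrays, as did leaving out control 3 for E2f1, control 2 for Pole, control 1, control 3 or hyperoxic 3 for Cdc7, control 2, control 3 or hyperoxic 3 for Cdkn2b, and any control array or hyperoxic 3 for Chaf1b. The difference ranged from 0.62 to 0.77 for E2f1, 0.57 to 0.68 for Pole, 0.68 to 0.83 for Cdkn2b and -0.55 to -0.46 for Cdc7. Over those settings the adjusted p of E2f1, Pole, Cdkn2b, Cdc7 and Chaf1b reached 0.131, 0.132, 0.139, 0.144 and 0.208 by limma. The Cdkn1a call held in each of those settings, with an adjusted p of up to 0.0276. With median centring Cdc7 was at -0.19 (adjusted p = 0.587 by limma), where the median of all probes was 0.24.

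Against the labelled groups the same genes passed in part. At P12.5 against the hyperoxic arrays Cdkn1a (1.80 ± 0.22) and E2f1 (0.81 ± 0.14, adjusted p = 0.0278 by limma) rose. Pole (0.63 ± 0.13, adjusted p = 0.0452 by limma) was called higher, and Chaf1b had an adjusted p of 0.0614. Against the control Cdkn1a (1.69 ± 0.22) and Cdkn2b (0.87 ± 0.17, adjusted p = 0.0362) rose and Cdc7 (-0.60 ± 0.11, adjusted p = 0.0352) fell, while Pole was at 0.58 ± 0.13 (adjusted p = 0.0536). The Cdkn1a call against the control ended without control 1 or any 1 of the P12.5 arrays (adjusted p = 0.0609 to 0.0772), while the difference lay between 1.49 and 1.79 whichever array was left out. Between the labelled P12 groups 0 of these genes passed, and the lowest p were those of Lin54 (-0.63 ± 0.17), a MuvB subunit, the cyclin gene Ccnd3 (-0.57 ± 0.15), Zwint of the kinetochore (0.31 ± 0.10, and -0.04 ± 0.13 on its second probe) and the clamp loader gene Rfc4 (0.38 ± 0.13), with adjusted p from 0.46 to 0.479. Grouped by the ratio reference, as outside minus inside, Lin54 was at -0.11 ± 0.25 and Rfc4 at 0.11 ± 0.17. In that order Ccnd3 (0.06 ± 0.23) and Zwint (-0.17 ± 0.13) had the other sign, which rests on the order taken.

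**Figure D4:**
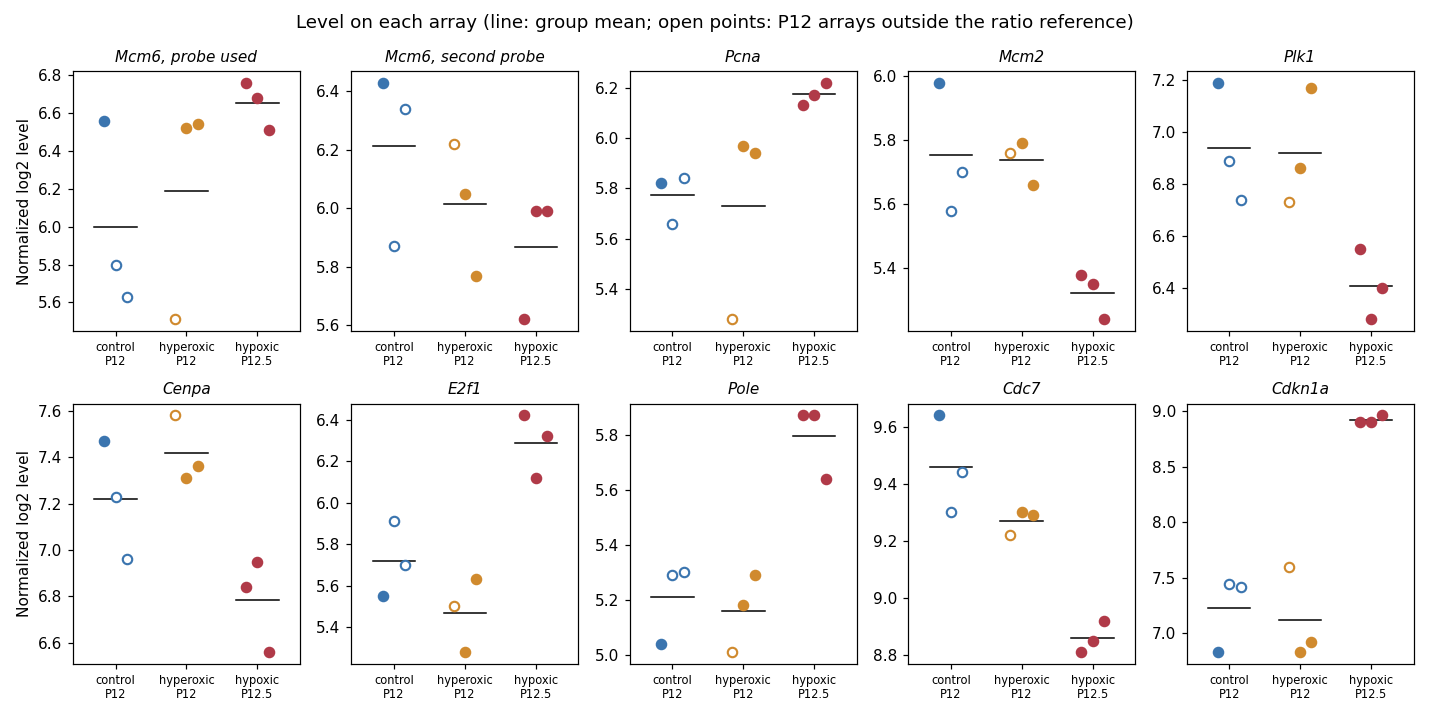
Normalized log2 level on each of the 9 arrays, by labelled group, of the 2 tested Mcm6 probes, of Pcna, Mcm2, Plk1 and Cenpa, and of E2f1, Pole, Cdc7 and Cdkn1a. Each panel has its own axis, lines are group means over 3 arrays, and open points are P12 arrays outside the ratio reference. The first Mcm6 probe is low on all 3 open points and the second is not.

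Grouped by the ratio reference, 7 of these other genes passed among the P12 arrays, where 3.91% of all tested probes did. Higher outside than inside were Cdkn1a (0.62 ± 0.10, adjusted p = 0.00879 by limma), the p57 inhibitor gene Cdkn1c (0.47 ± 0.11), Pola2 of the primase complex (0.61 ± 0.14) and the cytokinesis and spindle genes Anln (0.64 ± 0.10), Cit (0.81 ± 0.12) and Kif4 (0.84 ± 0.14). Lower outside was Dut (-0.57 ± 0.12), which clears dUTP. By list these were 2 of 12 inhibitors, 2 of 36 replication genes and 3 of 22 mitosis genes.

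Cit was at 4.88, 5.72 and 5.90 on control 1 to 3, at 5.91, 5.16 and 5.06 on hyperoxic 1 to 3, and at 5.41, 5.27 and 5.16 on hypoxic 1 to 3. Like the first Mcm6 probe, though in the other direction, it set the P12 arrays apart along the reference and not along the labels. The Cit probe was detected on all 3 arrays outside but on only 1 of the 3 inside, so that the size of its difference is uncertain.

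At P12.5 against the arrays inside, where 9.06% of all tested probes were called, 5 of the 36 other replication genes were called higher and 2 lower. The ligase Lig1 (0.75 ± 0.13, adjusted p = 0.00567 by limma), the flap endonuclease Fen1 (0.54 ± 0.10, adjusted p = 0.00834), the licensing factor Cdt1 (0.62 ± 0.12, adjusted p = 0.0121) and Chaf1a rose, and Cdc7 and Dut fell. Pole was called higher too, having entered the test only through P12.5. A second tested Lig1 probe, detected on 6 arrays, read 5.39, 5.45 and 5.12 on hypoxic 1 to 3. Its mean on the arrays inside was 5.13, and hyperoxic 3, at 5.25, overlapped the P12.5 arrays. Against the arrays outside, where 6.23% were called, Pole was called higher and 35 did not pass. The 8 replication members had 1 call against the arrays inside and 2 against those outside, and the difference between these counts was not tested.

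Of the 22 other mitosis genes, Anln (0.94 ± 0.10, adjusted p = 7.22e-04 by limma) and Kif22 rose against the arrays inside. Cdc25c was called lower against them, but its probe was detected on only 2 of the 3 P12.5 arrays. It entered the test only through the control group, where it was high, so that its call is no support for a fall. Against the arrays outside Mad2l1 and Stmn1 rose and Cit and Kif4 fell. Cenpk was called higher there too, but was detected on no P12 array and on all 3 P12.5 arrays. It entered the test only through P12.5, and no lower bound on a rise could be given. E2f1, Cdkn1a and Cdkn2b rose against both, and Rb1 and Cdkn1c rose against the arrays inside.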

How the data were processed

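RNA of 9 whole-retina samples was measured on Illumina bead arrays. Per the labels' protocols, an Ambion kit gave biotin-labelled cRNA; for the scanner software and any background treatment, the sources used here give nothing. The deposited table holds probe intensity on a linear scale, not normalized. Beside each intensity stands a detection p-value, per the file headers. Each of the 9 p-value columns fell steadily along the intensities of a single array, and was used with that array; for 5 arrays (control 2 and 3, all hyperoxic) it stood beside another, in the pattern given with the label doubt above. The deposited value table holds ratios (median 0.903 to 1.01 per array) whose prior scaling is not stated. Their reference was sought among all 84 sets of 3 arrays, taking a median within 0.0015 of 1 as a match, and the next best set matched at 42.7% of probes.

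Of 46640 probes, 27 at 0 on all arrays were left out; 32781 had 1 symbol, 55 several and 13777 none. limma 3.58.1 (R 4.3.3) fitted normexp from the detection p-values, added an offset of 16, took log2 and normalized by quantiles. The offset makes differences of dim probes smaller than they are. All 9 arrays entered 1 fit (lmFit, eBayes, two-sided). Every adjusted p is limma's. The number of arrays limits the precision. The fit was tested on simulated data.

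Values of every array are given for members called, the 3 most intense of each role and the 3 of lowest p per comparison. Other cell cycle genes are named where called or among the 4 of lowest p; Cit was given in full after its values were seen. Members and lists were chosen with earlier results of these data known. Alternatives changed background, scaling, offset, filter, p-value columns, weights, probes, arrays, replicate block and P12 grouping. Promoters are RefSeq's (GRCm38.p6).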

Additional observations from a re-analysis of the deposited data

How the results depend on the processing

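Of 626 values of 32 gene results under the alternatives, 507 kept their direction and their side of the threshold, 90 lost the call, 25 gained one and 4 reversed. The 4 were differences between the P12 groups, with the arrays grouped by the ratio reference: Bub1 0.06, Mcm4 0.16, Ccnd3 0.06 and Zwint -0.17. In that setting outside minus inside stood for hyperoxic minus control, and the 4 reversals rest on that order. At P12.5, however, inside stood for hyperoxic and outside for control. For the values below the cause was not tested unless the setting's own construction shows it. In order, the comparisons are P12.5 with hyperoxic, with control and with all 6 P12 arrays.

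With median centring, probes called were 185, 42 and 257, the replication median 0.57, 0.35 and 0.46 (-0.09 between the P12 groups) and the mitosis median 0.21, 0.01 and 0.08, while the median of all probes was 0.31, 0.18 and 0.24. With the deposited ratios, probes called were 21, 14 and 26, the replication median 0.31, 0.18 and 0.29 (-0.11 between the P12 groups), and the mitosis median -0.07 against control and -0.01 against all 6. Without background correction, 694 probes were called against control, and the replication median was 0.15 against hyperoxic and 0.12 against all 6. With an offset of 50, 624 probes were called against control and 1 member, Cenpa, against all 6. With no detection filter, which adds undetected probes, 190 probes were called against hyperoxic, the replication median was 0.07, 0.03 and 0.04, and the mitosis median -0.02 against control. With a detection p under 0.01, 1 member, Mcm2, was called against all 6.

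Array weights, which gave hyperoxic 1 a weight of 0.141 and were fitted gene by gene because the default fit did not converge, called 3414, 3957 and 4493 probes and 888 between the P12 groups. Members called were 3 (Cenpa, Mcm2, Plk1), 5 (Bub1, Mcm2, Mcm6, Pcna, Plk1) and 5 (Cenpa, Mcm2, Mcm6, Pcna, Plk1). The replication median was 0.02 between the P12 groups and 0.16 against hyperoxic, and the mitosis median -0.13 against hyperoxic. With the P12 arrays grouped by the ratio reference, outside against inside called 768 probes and 1 member, P12.5 against inside 1777 and 4 (replication median 0.14, mitosis median -0.10), and P12.5 against outside 1223 and 2 (mitosis median 0.01).

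The replicate numbers did not pair the arrays: deviations of arrays of the same number correlated between -0.34 and 0.10. With the replicate block, 128, 27 and 175 probes and 0 members were called.

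Leaving out each array in turn, probes called ranged from 0 to 565 between the P12 groups, 50 to 2000 against hyperoxic, 18 to 3163 against control and 69 to 3128 against all 6, the highest each time without hyperoxic 1. Members called ranged from 0 to 0, 0 to 2, 0 to 4 and 0 to 4. The replication median ranged from -0.06 to -0.02, 0.15 to 0.25, 0.06 to 0.15 and 0.14 to 0.19, and the mitosis median from -0.19 to -0.08, -0.09 to 0.04, -0.28 to -0.02 and -0.17 to 0.01. Signal over background limits the 15 genes with no detected probe.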
